A study of Caenorhabditis elegans with 4 samples.

Results

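The broad Pol II regions are the stretches of 2500 bp or more that were each called as a single RNA polymerase II region. They come from third-stage (L3) larvae of the nematode Caenorhabditis elegans. They were selected on width from the authors' combined list, called on the merged reads of both chromatin immunoprecipitation (ChIP-seq) replicates. Of its 9051 regions, 638 were this wide, and 2 of them were left out because they overlapped no region in the list of either replicate, which leaves 636 broad regions (7.03% of the list). Members were chosen by width and by overlap with a replicate's list, so their widths, q-values and overlap are given as a description, without a test. Positions are in the WormBase WS220 build. The lists name no genes and no annotation of that build was used here, so regions are identified by chromosome, start and end.

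The samples were 2 Pol II ChIP libraries and 2 inputs (sheared, crosslinked chromatin that was never immunoprecipitated), all from whole L3 hermaphrodites grown at 20 °C. All 4 are labelled with 1 strain, OP54, which has the mutation unc-119(ed3) on chromosome III and the integrated transgene wgIs54, where unc-119(+) accompanies egl-5 fused to TY1, EGFP and 3xFLAG. The labels conflict: the titles of all 4 samples carry the name EOR-1, and a free-text note on OP54 calls the fusion EOR-1. OP81 is the strain in the sample table. Which strain and fusion were used was not resolved here. The 8WG16 antibody binds the C-terminal heptapeptide repeats of the largest Pol II subunit, AMA-1, and not the tagged factor. Uniquely mapped reads numbered 3262273 in ChIP replicate 1 and 4623128 in replicate 2, and 1912753 and 1414731 in input replicates 1 and 2. Separate cultures are not stated for the replicates, so their spread may be technical. Whole animals mix all tissues, so fewer cells with Pol II at a place and less Pol II per cell cannot be told apart.

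RNA polymerase II transcribes all protein-coding genes and many small RNA genes. It gathers at promoters, travels along the gene body and is often dense again past the 3′ end, so a long unbroken stretch of ChIP signal is usually found over heavily transcribed genes, over neighbouring active genes or over operons, which in C. elegans place several genes under a single promoter. The X chromosome is a special case in this species. In hermaphrodites the dosage compensation complex lowers transcription from both X chromosomes, and germ cells keep most of the X silent.

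Together the broad regions covered 2.52 Mb, which was 36.4% of the bases in the combined list and 2.51% of the 6 nuclear chromosomes, a share of bases that the choice by width sets in part. Their median width was 3575 bp (quartiles 2945.5 and 4533.25 bp), with a range of 2502 to 12090 bp, whereas the 8413 regions under 2500 bp had a median of 346 bp. Of the 636, 113 reached 5000 bp and 3 reached 10000 bp. The 3 members just inside the threshold lay on chromosome IV, 2321312 to 2323813 (2502 bp), on X, 4157136 to 4159640 (2505 bp), and on IV, 8111186 to 8113690 (2505 bp). The 3 regions just outside lay on chromosome I, 7581724 to 7584221 (2498 bp), on V, 7414844 to 7417332 (2489 bp), and on II, 601265 to 603752 (2488 bp).

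The authors' q-values of the broad regions had a median of 2.41e-102 and ran from 5.37e-306 to 0.00204. A q below 1e-50 was listed for 481 members (75.6%), against 10.6% of all combined regions. This is no separate finding, since the same reads set both the width and the q-value of a region. Median q fell with width, from 6.15e-77 at 2500 to 2999 bp to 8.61e-147 at 5000 bp or more. The strongest members were still not the widest. The strongest of all, chromosome III 9814901 to 9819513, was 4613 bp wide. On chromosome II the strongest, 14865256 to 14867971 (q = 1.24e-267), was 2716 bp wide, and on V and X the strongest were 5444 and 5200 bp wide. The widest member, on chromosome V, had q = 1.09e-99. No list holds a q of 0, and the lowest values listed are 8.45e-307 for replicate 1, 1.69e-302 for replicate 2 and 5.37e-306 for the combined list.

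The 10 widest members measured 8400 to 12090 bp and lay on chromosomes V (5), II (3), X (1) and IV (1). None lay on I or III. The widest, chromosome V 20408358 to 20420447, sat near the right end of its chromosome. Replicate 1 covered 89.0% of it in 2 regions of 7943 and 2876 bp, and replicate 2 covered 50.3% in 4 regions, of which the longest was 3032 bp. It stood nearly alone, with the nearest other broad region 401999 bp away.

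The second, chromosome II 3951216 to 3962667 (11452 bp, q = 1.20e-91), was kept by replicate 1 as 1 region of 11141 bp and appeared in replicate 2 as 3 regions that covered 69.7%. The widest on X, 12508613 to 12519092 (10480 bp, q = 4.43e-188), was split in both lists, into 2 regions in replicate 1 (96.6% covered) and 3 in replicate 2 (57.7%). Both replicates were strongest over the same part of it. The replicate 1 region at 12512349 to 12519046 (q = 4.45e-110) enclosed the replicate 2 region at 12514424 to 12518757 (q = 1.10e-63).

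On chromosome V, 12298262 to 12307398 (9137 bp, q = 4.03e-255) was covered almost alike, 84.8% in replicate 1 and 82.5% in replicate 2, each in 3 pieces. Its neighbour 225 bp to the left was itself broad, and a single replicate 1 region, 12294953 to 12304214, ran across both. At the other extreme, chromosome V 15656517 to 15666170 (9654 bp) was 93.0% covered by 1 region in replicate 1 and 34.7% covered by 3 regions in replicate 2.

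The other 5 of the 10 widest repeated these forms. On chromosome II, 1232725 to 1241888 (9164 bp) was 1 region in each replicate, fully covered in replicate 1 and covered to 60.3% in replicate 2. Also on II, 7885615 to 7894659 (9045 bp) was in 3 pieces in replicate 1 and 6 in replicate 2. On chromosome IV, 16486729 to 16495205 (8477 bp, the widest there) was in 2 and 4 pieces. On chromosome V, 16776324 to 16784769 (8446 bp) was 1 region in each list, covered to 91.0% and 45.5% by replicates 1 and 2, and 13041306 to 13049705 (8400 bp) was in 2 and 5 pieces, covered to 96.7% and 80.2%. The widest members of the remaining chromosomes were shorter: chromosome III 10151536 to 10158141 (6606 bp), 1 region in replicate 1 and 5 in replicate 2, and chromosome I 12570220 to 12576701 (6482 bp), 2 regions and 3 regions.

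**Figure D1:**
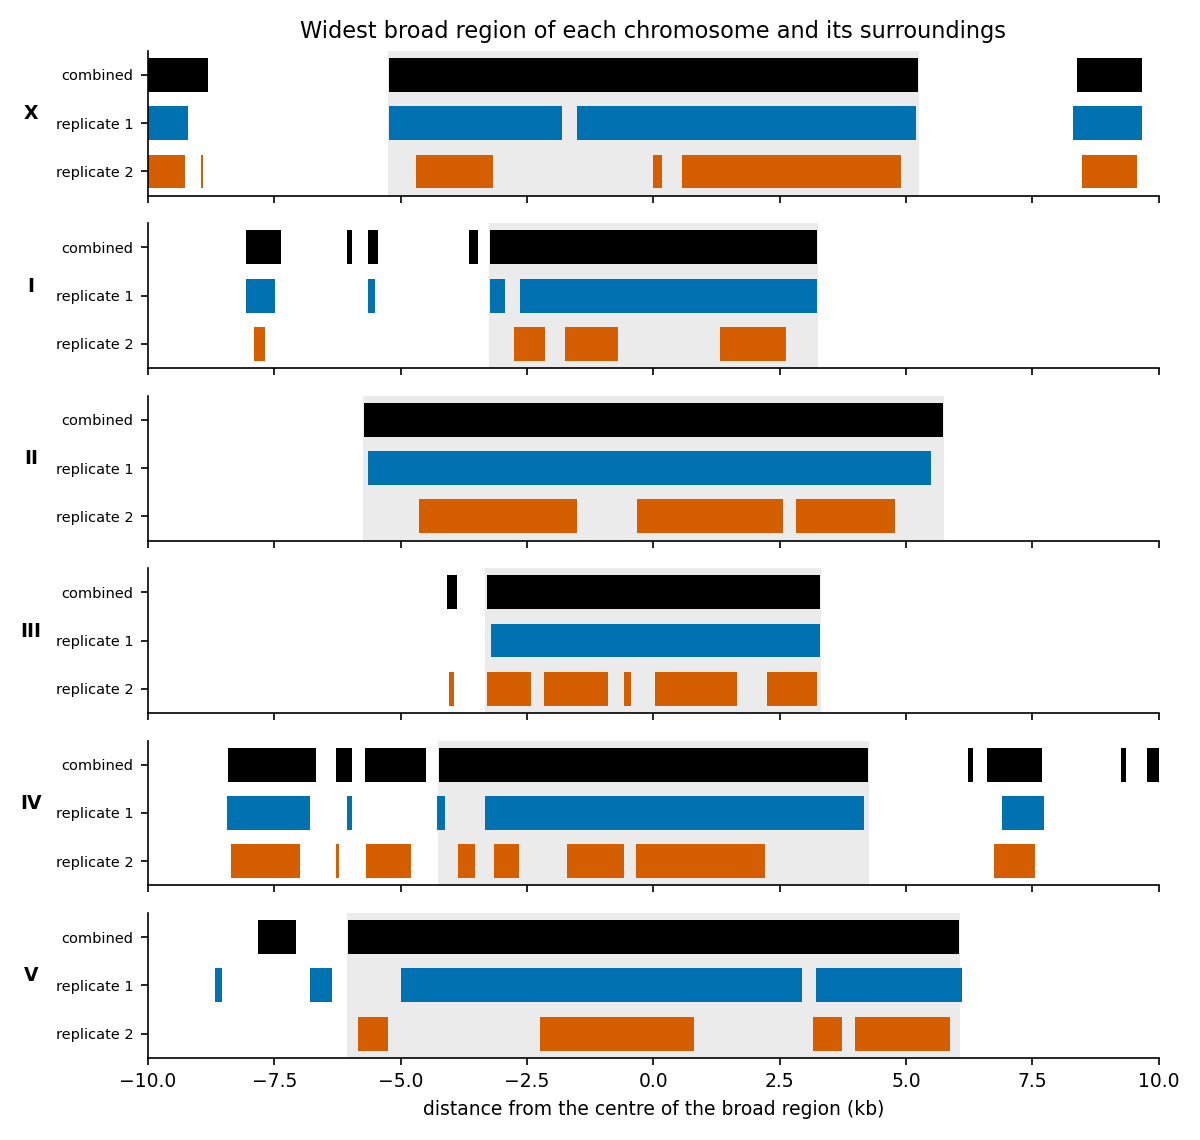
Regions called within 10 kb of the centre of the widest broad region of each chromosome; the x axis is the distance from that centre in kb, the 3 rows per chromosome are the combined list, replicate 1 and replicate 2, and grey marks the broad region. Replicate 1 fills most of each broad region in 1 or 2 pieces, and replicate 2 covers parts of it in 3 to 5 pieces.

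The first question was where on the chromosomes broad regions lie, a property the rule did not use. The X chromosome held the most, 139, followed by V with 114, IV with 113, II with 107, I with 86 and III with 77. Per Mb, X had 7.85, against 7.01 on II, 6.47 on IV, 5.72 on I, 5.59 on III and 5.45 on V, and against 6.03 over the 5 autosomes (ratio 1.30). The X chromosome also had the largest part of its length inside broad regions, 3.28%, against 2.35% of the autosomes (ratio 1.39), and its broad regions had a median width of 3860 bp, against 3509 bp on the autosomes.

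The X chromosome has few Pol II regions for its length, so the share of its regions that were broad stood further apart. It was 14.7% of 947 on X (Wilson 95% interval 12.6 to 17.1), against 6.13% of 8104 on the autosomes (interval 5.63 to 6.68). The intervals cover counting error only. The autosomes were not alike: the share was 11.6% on V and 10.5% on II, but 5.35% on IV, 4.13% on I and 4.03% on III. On X, V and II broad regions held 50.0%, 46.2% and 45.8% of all covered bases, against 29.5% on IV, 25.4% on I and 24.8% on III. X, II and V thus had both the wider members and the larger broad shares.

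In each replicate's own list X, V and II also had the larger broad shares. Regions of 2500 bp or more were 19.2% of the replicate 1 regions on X, 17.7% on V and 15.4% on II, and 5.90% to 6.95% on the other 3. In replicate 2 they were 6.94% on X, 6.56% on II and 5.49% on V, and 1.97% to 2.66% on the others. Per Mb, X was highest in replicate 1 (8.19) but second in replicate 2 (3.10, after 3.34 on II), with ratios of X to autosomes of 1.19 and 1.26 (mean 1.23 ± 0.0486, SD, n = 2). With 1 combined list and 2 replicates this order was not tested.

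**Figure D2:**
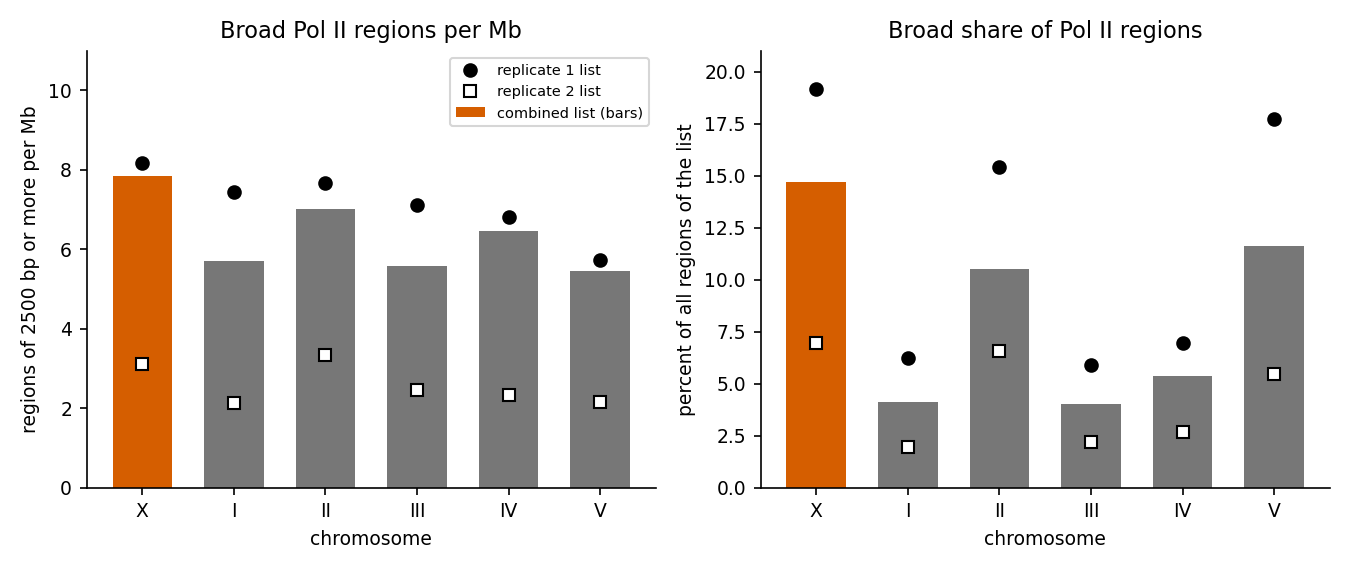
Regions of 2500 bp or more per Mb (left) and as a percent of all regions of the same list (right), by chromosome; bars are the combined list (X in orange, autosomes in grey), filled circles replicate 1 and open squares replicate 2. X has the tallest bar in both panels, 7.85 per Mb and 14.7%, and the X, II and V bars stand above I, III and IV in the right panel.

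This order shifted when regions that the combined list lacks were counted. Of the 711 replicate 1 regions of 2500 bp or more, 538 (75.7%) overlapped a broad combined region, 68 overlapped narrower combined regions only and 105 overlapped none. Of the 258 such regions in replicate 2, 109 (42.2%) overlapped a broad region and 149 (57.8%) overlapped none. Of these absent regions, 102 of the 105 and 79 of the 149 also overlapped a region of the other replicate, although the combined list was called on both merged. They were strong, with a median q of 4.98e-232 in replicate 1 and 5.29e-140 in replicate 2, against 5.60e-66 and 8.78e-54 for the wide regions of these lists that the combined list does overlap. Adding them gave 816 broad regions, and X remained first per Mb with 9.14, against 8.57 on III, 8.47 on IV, 8.39 on II, 8.31 on I and 6.46 on V, a ratio of X to autosomes of 1.15. The shares became 16.7% on X, 13.4% on V and 12.3% on II, against 5.89% to 6.90% on I, III and IV. The 636 members are therefore not a full count of wide Pol II regions in these libraries, and why the combined list lacks the others was not tested.

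Chromosome centres, which on the autosomes of this species are rich in conserved genes, were compared with the arms by cutting each chromosome, X included, into 3 equal lengths. The centres held 255 broad regions, the left parts 202 and the right parts 179. Broad regions per Mb were higher in the centre on all 6 chromosomes, by 1.83 on average (SD 1.04, n = 6 chromosomes). An exact permutation test that flips the signs of these differences, two-sided, gave p = 0.0312, which is the lowest value it can reach here, and 0.0938 adjusted over 3 tests. The difference did not pass the 0.05 threshold after adjustment. Chromosomes share the same libraries and are not biological replicates.

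Values per Mb were 7.61 in the centre and 4.38 in the arms of chromosome V, 9.82 and 6.86 on X, and 6.75 and 5.01 on III. They were closer on IV (7.38 and 6.01), II (7.66 and 6.68) and I (6.18 and 5.48). The arms of 1 chromosome could differ, with 46 members in the left and 24 in the right part of IV, and 18 and 28 on III. Chromosome V held 53 members in its centre, 34 in its left and 27 in its right part.

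Broad regions did not make up a detectably larger share of the regions in the centres than in the arms. The share was 17.2% in the centre and 13.3% in the arms on X, but 8.13% and 12.7% on II and 10.5% and 12.8% on V, and within 0.521 points on I, III and IV. The mean difference was -0.488 points (SD 2.84, n = 6; higher in the centre on 2 chromosomes; the same exact test, p = 0.656, adjusted p = 0.656).

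Along the chromosomes the members were spread out. Each of the 97 full windows of 1 Mb held at least 2, with a median of 6 and a maximum of 14, on X from 6000001 to 7000000. Next came 12 members each on II from 5000001 to 6000000, on V from 7000001 to 8000000 and on IV from 5000001 to 6000000. The fewest, 2 each, were on III from 1000001 to 2000000, on V from 19000001 to 20000000 and on X from 16000001 to 17000000. These windows were chosen after their values were seen.

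The second question was what surrounds a broad region. The nearest other combined region lay a median of 681 bp from the edge of a broad region (quartiles 295.5 and 2662.25 bp), against 921 bp for narrower regions (quartiles 364 and 3263 bp). No list has regions closer than 200 bp. A neighbour less than 500 bp away was found for 267 members (42.0%, Wilson 95% interval 38.2 to 45.9), against 34.9% of all combined regions. Neighbours that close on both sides were found for 6.29% of broad and 5.72% of narrower regions. No region within 10 kb was found for 8.49% of broad and 8.68% of narrower regions. These shares pool chromosomes that differ. Close neighbours on both sides were more frequent for broad regions on IV (12.4% against 8.06%) and all others but X (1.44% against 2.97%). Having none within 10 kb was less frequent for broad regions on X (12.2% against 18.3%) and all others but II (13.1% against 12.4%). These orders were not tested.

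Close neighbours were found mainly on the chromosomes with many regions. The median distance was 350 bp for broad and 666 bp for narrower regions on IV, 391.5 and 801.5 bp on I, and 503 and 802 bp on III. On X it was 1810 bp for broad and 2141 bp for narrower regions. On II and V the order was the other way, with 1547 and 1412 bp on II and 1753 and 1651 bp on V. The mean of the 6 differences was -186.5 bp (SD 240, n = 6; broad regions closer on 4 of 6 chromosomes), which did not pass the test (the same exact test, p = 0.125, adjusted p = 0.188). The direction turned round among regions with q below 1e-20, to 791.75 bp (exact p = 0.812), and with a width of 2000 bp or more the difference was -294 bp (exact p = 0.0312, unadjusted).

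**Figure D3:**
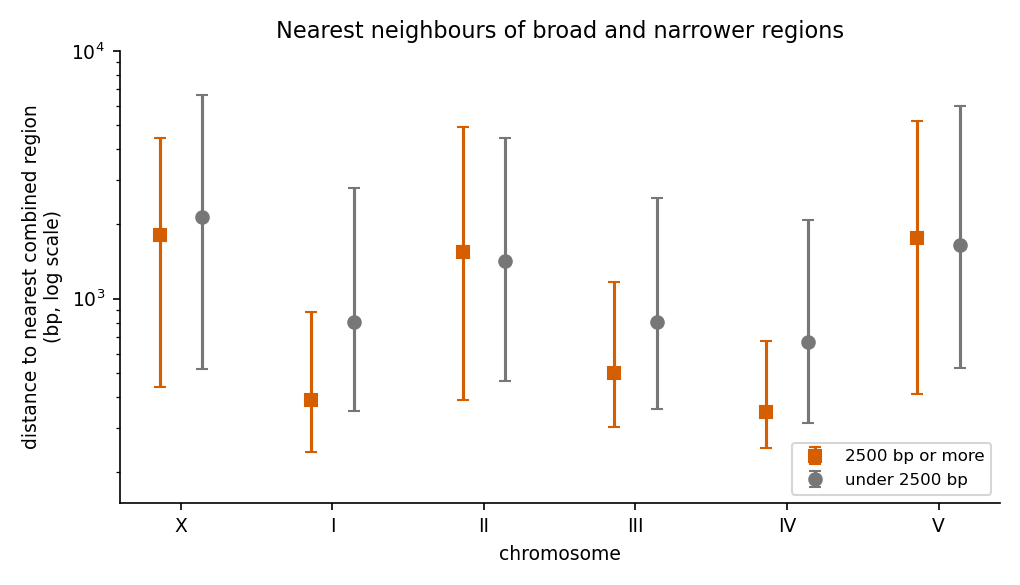
Distance in bp (log scale) from a combined region to its nearest neighbour, by chromosome; orange squares are regions of 2500 bp or more, grey circles regions under 2500 bp, points are medians and bars the quartiles. Broad regions have the lower median on X, I, III and IV, for example 350 bp against 666 bp on IV, and the higher one on II and V.

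Most of the nearest neighbours were narrower than 2500 bp. The region nearest to a member had a median width of 606 bp, and 266 of the 636 nearest neighbours (41.8%) were under 500 bp. All combined regions under 2500 bp had a median width of 346 bp. Of the nearest neighbours, 74 (11.6%) were themselves broad, against 7.03% of all combined regions. The widths of the neighbours of narrower regions were not computed. Joining all combined regions less than 500 bp apart placed the 636 members in 611 islands with a median width of 4219 bp. Of these, 369 (60.4%) were a broad region alone and 25 held at least 2 broad regions. The widest island, chromosome I 14924545 to 14943168, measured 18624 bp and joined 11 regions, 2 of them broad. The next, chromosome II 1232725 to 1247770, measured 15046 bp and consisted of 2 broad regions, 9164 and 5679 bp wide, only 203 bp apart.

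Broad regions came near one another at times. The median distance from a member to the nearest other member was 40687 bp, and 159 members (25%, interval 21.8 to 28.5) had one within 10 kb, against 21.4% of all combined regions. The share was 33.8% on X (interval 26.5 to 42.0), 30.2% on I, 26.5% on IV, 24.3% on II, 19.5% on III and 13.2% on V (interval 8.14 to 20.6). Broad regions were also closest packed per Mb on X, and the part of this in the share was not tested. The loneliest member, chromosome V 2672150 to 2674681, was 535662 bp from the next.

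Linking members with gaps under 10 kb gave 64 pairs, 9 groups of 3 and 1 group of 4, while 477 members stood alone. The group of 4 lay on chromosome I between 10756381 and 10774067, where broad regions filled 83.3% of 17687 bp. Its members measured 2639, 4523, 4376 and 3198 bp and were separated by 617 to 1630 bp. Replicate 1 covered the first 3 to 89.8%, 89.5% and 82.0%, and replicate 2 to 43.8%, 36.9% and 64.6%. The last member turned this round: replicate 1 covered 11.9% of it in 3 short pieces, and replicate 2 covered 79.9%. A group of 3 on chromosome II, 13138872 to 13149546, was filled to 92.5%.

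The third question was how each replicate kept or split the broad regions. Both replicates overlapped 612 members (96.2%, Wilson 95% interval 94.4 to 97.5), replicate 1 alone 13 and replicate 2 alone 11. An overlap of 1 bp sufficed for this, and when at least 50% of a member had to be covered, the share in both was 54.8%. Over all combined regions 44.9% overlapped both; the choice of members by overlap set part of the difference. Of the 2519 kb inside broad regions, both replicates covered 50.5%, replicate 1 alone 41.7%, replicate 2 alone 3.49% and neither 4.30%. Replicate 1 thus covered 92.2% and replicate 2 54.0%, although replicate 2 had more uniquely mapped reads. The part of depth and of signal over background in this difference was not tested.

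Region by region the difference ran 1 way. Replicate 1 covered more of the region in 586 members and replicate 2 in 50, and 546 of the 612 that both overlapped had their lower q-value in replicate 1. Narrower regions ran the same way, with 5036 more covered in replicate 1 and 1916 in replicate 2, and the lower q-value in replicate 1 for 2493 of the 3452 that both overlapped. The median member was 98.7% covered in replicate 1 (quartiles 91.0 and 100%) and 53.2% in replicate 2 (quartiles 36.9 and 69.7%). At least 90% was covered in replicate 1 for 494 members (77.7%, against 42.4% of all combined regions) and in replicate 2 for 40 (6.29%, against 9.6% of all).

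More broad regions were split in replicate 2 than in replicate 1, and how many depended on how near regions were counted as separate. In replicate 1, 500 members (78.6%, interval 75.3 to 81.6) overlapped 1 region and 125 (19.7%, interval 16.8 to 22.9) overlapped 2 to 4. In replicate 2, 229 (interval 32.4 to 39.8%) overlapped 1 region and 394 (61.9%, interval 58.1 to 65.6) overlapped 2 to 6. When replicate regions less than 500 bp apart were merged, 3.14% of members were split in replicate 1 and 37.9% in replicate 2. Merging combined regions less than 500 bp apart gave 52.1% and 70.9%. Over all combined regions, most of which are too narrow to hold several pieces, 3.38% were split in replicate 1 and 7.63% in replicate 2. The most common form was 1 region in replicate 1 and several in replicate 2, in 291 members, followed by 1 region in both (198) and several in both (102). Only 21 overlapped several regions in replicate 1 and 1 in replicate 2. A member that overlapped 1 region was not always covered over its full width.

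Being broad in the merged data did not mean being broad in each replicate. A replicate 1 region of 2500 bp or more overlapped 536 members (84.3%) and a replicate 2 region of that width overlapped 107 (16.8%). Both did so in 96 members and neither in 89, so these 89 were 2500 bp wide only where the authors merged the replicates. The longest stretch that replicate 1 covered inside a member had a median of 3212.5 bp, and the longest of replicate 2 a median of 1409.5 bp. Replicate regions also reached past the members: 137 (21.5%) lay inside a single replicate 1 region that extended beyond both ends, against 3 in replicate 2. Of the 773 replicate 1 regions that overlapped a member, 62 joined it to at least 1 more combined region, up to 3 in all, and 1 of 1268 did so in replicate 2.

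The breaks inside broad regions were short in replicate 1 and longer in replicate 2. Replicate 1 had 151 such gaps with a median of 274 bp (quartiles 233.5 and 371 bp, longest 1664 bp), and replicate 2 had 645 with a median of 457 bp (quartiles 285 and 821 bp, longest 3164 bp). No gap was under 200 bp, and 131 of the 151 gaps in replicate 1 were under 500 bp, against 355 of the 645 in replicate 2. Replicate 1 covered 95.1% of the bases in the replicate 2 gaps, against 92.2% of all bases in broad regions. Replicate 2 covered 54.6% of the bases in the replicate 1 gaps, against 54.0% of all. Both shares were near those over the whole regions, but those include the less covered ends, where gaps between pieces do not lie. The gaps were not compared with stretches placed alike. Replicate 2 covered no base of 28.5% of the replicate 1 gaps, and replicate 1 no base of 1.55% of the replicate 2 gaps.

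Cover was highest in the middle of a broad region and lowest at its ends. In the outermost 5% on either side, replicate 1 covered 82.2% and 82.7% of members and replicate 2 covered 22.3% and 22.2%. At 35 to 40% of the width replicate 1 covered 95.8%, its highest, and at 45 to 50% replicate 2 covered 64.6%, its highest.

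**Figure D4:**
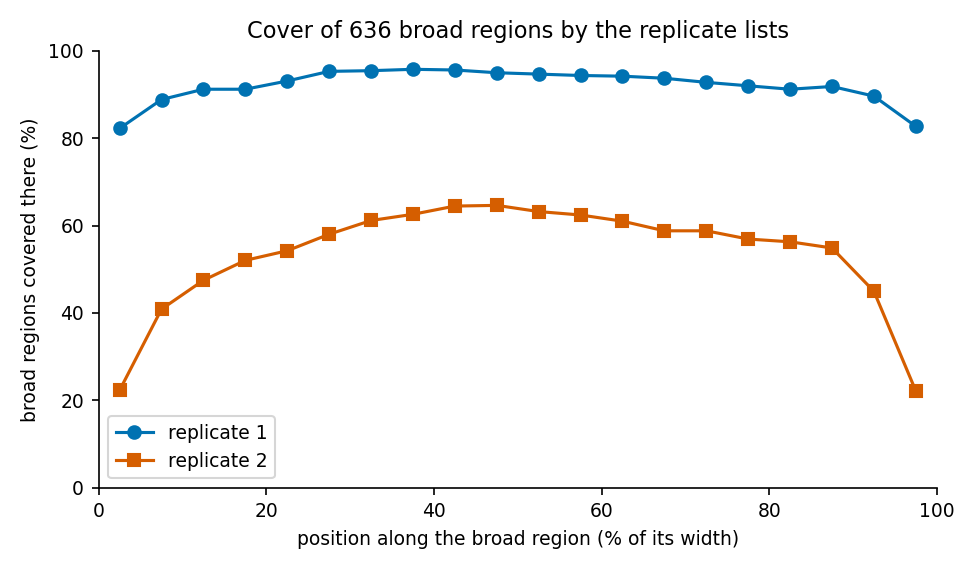
Percent of the 636 broad regions that a replicate's list covers at each position; the x axis runs from the lower to the higher coordinate in 20 bins of 5% of the region's width, with circles for replicate 1 and squares for replicate 2. Replicate 1 stays between 82.2% and 95.8%, and replicate 2 rises to 64.6% near the middle, against 22.3% and 22.2% at the ends.

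Splitting in replicate 2 differed between chromosomes. It affected 46.8% of members on X (65 of 139), 46.5% on V (interval 37.6 to 55.6) and 54.2% on II (interval 44.8 to 63.3), against 83.1% on III (interval 73.2 to 89.9), 82.6% on I (interval 73.2 to 89.1) and 73.5% on IV (interval 64.6 to 80.7). In replicate 1 it affected 17.3% on X, 9.65% on V and 13.1% on II, against 31.9% on IV, 27.9% on I and 20.8% on III. Both lists had the lowest shares on V, II and X. The covered share in replicate 2 hardly moved with this, from 50.4% on IV to 57.8% on II, so members on I and III were covered about as far but in more pieces.

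Wider members had more pieces in replicate 2, with 46.4% split at 2500 to 2999 bp, 61.4% at 3000 to 3999 bp, 70.2% at 4000 to 4999 bp and 78.8% at 5000 bp or more. Members on I and III were nonetheless the narrowest, with medians of 3238.5 and 3202 bp. Among members under 4000 bp, 28.8% were split on X, 31.3% on V and 45.9% on II, against 78.7% on III, 76.2% on I and 68.8% on IV. Pooled over chromosomes, strength moved with splitting. Of members with q below 1e-100, 74.5% were split in replicate 2, against 36.1% of those with q of 1e-50 or more. Between these classes the share fell from 59.5% to 33.3% on X and from 70.0% to 23.9% on V. It hardly changed on II (57.5% and 56.4%). The weaker class held 8 members on IV (37.5% split) and 1 each on I and III. At q from 1e-100 to 1e-50 the share was 75.8% on IV, 81.25% on I and 83.3% on III, near the values below 1e-100. Median q was lower on I (9.60e-167), III (2.45e-164) and IV (3.29e-122) than on II (4.25e-79), V (5.56e-66) and X (1.07e-60). Among the members with q below 1e-100 alone, the split share was 59.5% on X (interval 43.5 to 73.7), 70.0% on V (interval 54.6 to 81.9) and 57.5% on II (interval 42.2 to 71.5). It was 84.4% on III (interval 73.6 to 91.3), 84.1% on I (interval 73.7 to 90.9) and 76.4% on IV (interval 65.4 to 84.7). The interval of V overlapped those of I, III and IV, and the interval of IV overlapped those of X, V and II. The intervals of X and III also overlapped, narrowly. These are descriptions without a test over samples.

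**Figure D5:**
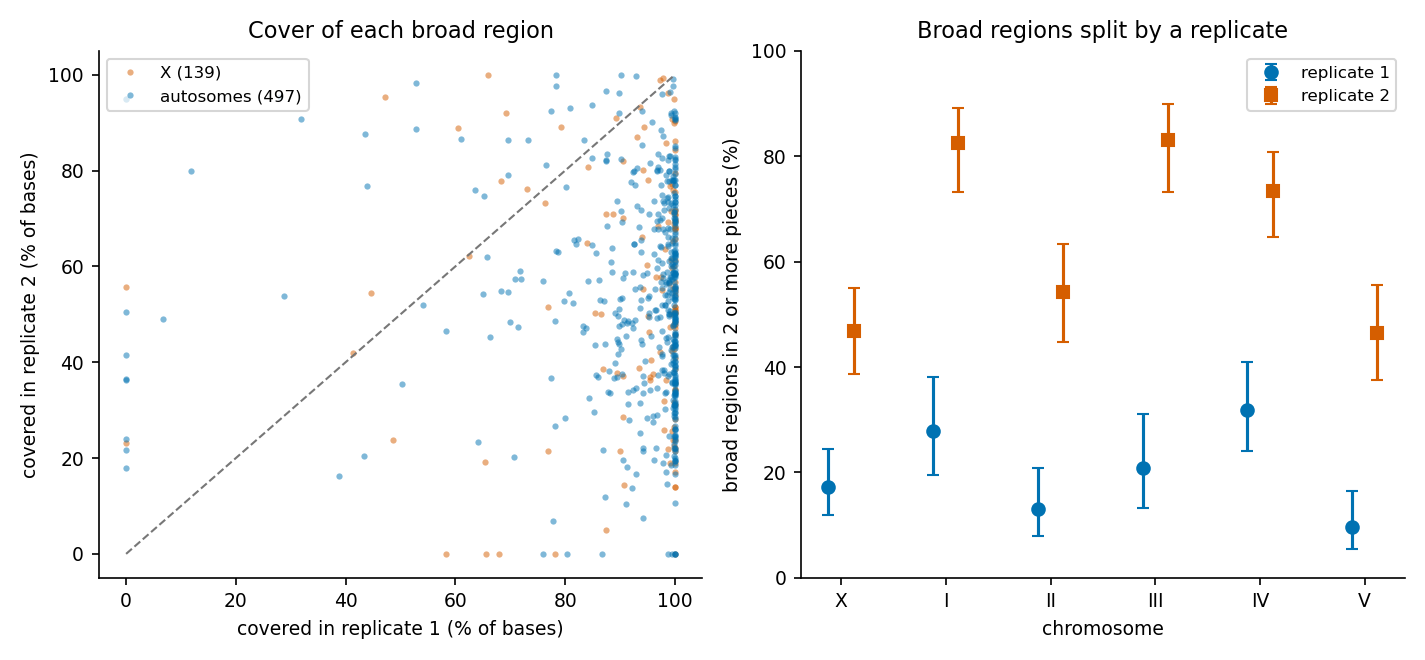
Left, the percent of the bases of each broad region that replicate 1 (x axis) and replicate 2 (y axis) cover, 1 point per region, orange for X and blue for autosomes, with a dashed line at equal cover; right, the percent of broad regions in 2 or more pieces in each replicate by chromosome, with Wilson 95% intervals. Most points lie below the line, near 100% on the x axis, and the replicate 2 split share is 46.8% on X against 82.6% on I.

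Single regions show how far the splitting went. In replicate 1 the members in the most pieces, 4 each, were chromosome III 5420969 to 5425598, chromosome IV 12817429 to 12821470 and chromosome IV 13388648 to 13391419. The region on III was also in 6 pieces in replicate 2, with 69.6% covered in replicate 1 and 54.7% in replicate 2. The other members with 6 pieces in replicate 2 that the rule names were chromosome II 7885615 to 7894659, chromosome IV 13026669 to 13033359 and chromosome IV 3865904 to 3870623. The region at 13026669 was 1 region of 5260 bp in replicate 1 (q = 5.77e-59), while its 6 pieces in replicate 2 were 242 to 1217 bp wide, none with q below 1.64e-07.

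Of the 8413 narrower regions, 2411 overlapped replicate 1 alone and 1095 replicate 2 alone. The 24 members found in 1 replicate lay on X, V, II and IV, with none among the 86 members on I or the 77 on III. The 13 members in replicate 1 alone were 4 on V, 5 on X, 3 on II and 1 on IV. The 11 members in replicate 2 alone were 5 on V, 4 on II and 2 on X. With so few members, their spread over chromosomes was not tested. Of the 24, 3 were covered fully by replicate 1 and not at all by replicate 2: chromosome II 160555 to 163939 (q = 6.97e-11 in the combined list), X 15278976 to 15281739 (q = 3.45e-18) and chromosome V 5410952 to 5413459 (q = 1.25e-41). The members with the most cover in replicate 2 and none in replicate 1 were chromosome V 3715759 to 3718286 (94.9%, combined q = 8.68e-07) and chromosome II 6288113 to 6291254 (94.8%, q = 1.72e-19). Most of the 24 were weak, with median q of 3.45e-18 and 2.73e-06 in the combined list. One stood apart, X 6746250 to 6751615 (5366 bp), which had q = 9.25e-163 in the combined list and q = 7.36e-75 in replicate 2 but no region in replicate 1. This member was picked out with its values in view.

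The rule left out 2 regions, chromosome IV 4792748 to 4823216 (30469 bp, q = 1.05e-25) and chromosome V 7891741 to 7894372 (2632 bp, q = 4.61e-07). The region on IV began 677 bp after a member, 4787570 to 4792070, which replicate 1 covered to 76.0% and replicate 2 not at all. Comments in the combined list mark 10 features, this one included, as altered inside by the conversion from an earlier build. Of the members, 3 are marked so, chromosome III 7356816 to 7360628 and X 7436479 to 7440001 and 7984890 to 7989757, so the widths of these 3 may have moved with the conversion.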

How the data were processed

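The 3 region lists (combined, replicate 1, replicate 2) were called by the authors with PeakSeq against merged input, per the file headers and the deposited sample table, in WS220 coordinates moved from an earlier build. Their values are the authors' q-values, all below 0.01. Read counts per run (36 bases) are those of the deposited sample table and were summed per sample. The deposited investigation file names Eland as aligner.

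Broad regions, pieces, covered bases and edge-to-edge gaps were computed with 1 bp as overlap in Python 3.11.15 (pandas 2.3.3, numpy 2.4.6; intervals from scipy 1.17.1), in scripts tested on simulated data. Chromosome lengths run to the last region of any list. A region's midpoint set its chromosome part. The mitochondrial genome was left out. Wilson 95% intervals cover counting error only and treat regions as independent. The 3 comparisons used two-sided exact sign-flip permutation tests over 6 chromosomes, with Benjamini-Hochberg adjustment. Inputs have no region list and entered only as the authors' control.

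The members, tests and alternatives were chosen with earlier results of these data known. Named regions are the 10 widest, the widest per chromosome, 3 with most pieces per replicate, 3 with the largest and 3 with the smallest cover in replicate 1 minus replicate 2, the longest chain, 3 on each side of the threshold and those left out. Others were chosen after their values were seen. Sequences and genes were not analysed here, since no genome or annotation of WS220 was used.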

Additional observations from a re-analysis of the deposited data

Results flagged for a closer look

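Wide regions that a replicate's list holds and the combined list does not overlap are a signal outside the 636 broad regions. Replicate 1 had 105 of them and replicate 2 had 149. Any count above 3 was flagged, which is a chosen limit and not a test. By chromosome they numbered 27 on I, 22 on III, 20 on IV and 12 each on II, V and X in replicate 1. In replicate 2 they numbered 31 each on III and IV, 25 on I, 23 on X, 20 on II and 19 on V. A q below 1e-50 was listed for 102 of the 105 and for 137 of the 149. A broad region lay within 10 kb of one of them in 37 of 636 cases (5.82%). Their absence from the combined list was not tested for a cause.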

How the results depend on the processing

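Of 94 alternative values, 61 counted as unchanged. A tested difference had to keep its direction and its side of 0.05 (unadjusted p), and a share had to stay within its main 95% interval. A count of regions could move up to 1.5-fold, so 873 regions at 2000 bp counted as unchanged. The X to autosome ratio had to stay within 0.0486 of its main value, the SD over the 2 replicate lists. The others follow, with causes not tested. The difference of centre minus arms in broad regions per Mb was 0.0155 (p = 0.906) at 5000 bp and 0.941 (p = 0.0625) in the replicate 2 list, by the exact permutation test. By the same exact test, the distance to the nearest region, broad minus narrower, was -294 bp (p = 0.0312) at 2000 bp and turned round to 791.75 bp (p = 0.812) among regions with q below 1e-20. The X to autosome ratio was 1.46 at 3000 bp, 1.84 at 5000 bp (113 regions), 1.18 with q below 1e-20, 1.08 after merging combined regions less than 500 bp apart, 1.19 in the replicate 1 list and 1.15 with absent wide regions added, an alternative chosen after seeing the data. The share within 10 kb of another broad region was 32.0% at 2000 bp, 17.7% at 3000 bp, 7.08% at 5000 bp, 21.4% with q below 1e-20 and 31.25% with absent regions added, and 18.1% counted within 5 kb and 31.8% within 20 kb. The share split in replicate 2 was 55.4%, 68.1% and 78.8% at 2000, 3000 and 5000 bp, and 65.8% with q below 1e-20. Merging combined regions gave 52.1% split in replicate 1 and 70.9% in replicate 2, with 85.0% and 47.3% of bases covered. Merging replicate regions less than 500 bp apart gave 3.14% and 37.9% split. Overlap with both replicates was 98.2% at 5000 bp, 99.1% with q below 1e-20 and 54.8% when at least 50% had to be covered, and replicate 1 cover was 94.1% at 5000 bp and 94.0% with q below 1e-20.

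When only 1 replicate's list served for the overlap rule, 623 to 625 regions remained, with a ratio of 1.28 to 1.31 and centre minus arms of 1.89. The regions still came from the list called on both replicates merged, so this cannot show what dropping a replicate would do. No paired analysis was possible because regions were listed for the ChIP libraries alone, so the inputs share a number with them and no value. Precision is limited by 2 ChIP libraries and by lists that give regions but no read counts within them.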
